A study of Mus musculus with 14 samples.

Results

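Distal intergenic regions marked by H3K27ac in the mouse retina at E14, found by ChIP-Seq, are described here. A region (peak) was included when its midpoint lay outside every annotated gene body and more than 5000 bp from any transcription start site (TSS), on mm9 chromosomes 1 to 19 with the GENCODE vM1 annotation. Of the 13463 peaks, 1343 met this rule (9.98%, 95% Wilson interval 9.48 to 10.5%). A further 20 peaks at such positions lay on X or Y and were not included. The sample was taken at embryonic day 14 from mice of the CD1 strain, and neither a transgene nor a deletion of Lhx2 is named for it. The labels give the cells as retinal progenitor cells, whereas the methods describe whole dissected retinas, so postmitotic cells and adherent tissue may be included. Chromatin was immunoprecipitated with an antibody to histone H3 acetylated at lysine 27 in 2 replicate libraries, and 1 isotype control library was sequenced. The authors called the peaks on both replicates pooled, so no peak has a replicate value and no difference between groups of peaks was tested. Intervals cover counting error only, and neighbouring peaks are not independent.

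H3K27ac is deposited on nucleosomes by the acetyltransferases EP300 and CREBBP. It is found at active promoters and at active enhancers, which are regulatory elements that can lie far from the gene they act on. At enhancers the mark flanks sites bound by transcription factors. In the embryonic retina these include homeodomain factors such as SIX3 and LHX2, SOX factors and proneural basic helix-loop-helix factors. In a tissue sample, fewer cells carrying the mark and a lower mark per cell cannot be told apart, and the gene nearest to a distal element is not always the gene it regulates.

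The sequences show how widely the distal intergenic peaks ranged in base composition. All sequences are the central 300 bp of the peak, plus strand of mm9, read 5′ to 3′. The first lines show the pair of peaks with the highest fold enrichment, followed by the 5 most enriched peaks nearest to genes of 10 lists of retinal genes. Capitals mark CpG.
Tet3, chr6:83406315-83406614: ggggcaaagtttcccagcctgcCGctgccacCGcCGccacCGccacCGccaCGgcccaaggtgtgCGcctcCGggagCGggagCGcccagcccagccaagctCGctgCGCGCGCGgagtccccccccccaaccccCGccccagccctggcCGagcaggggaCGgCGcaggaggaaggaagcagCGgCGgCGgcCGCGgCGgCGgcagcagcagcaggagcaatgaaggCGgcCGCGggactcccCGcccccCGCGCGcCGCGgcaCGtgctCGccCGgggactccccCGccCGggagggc
Gm9766, chr10:53099083-53099382: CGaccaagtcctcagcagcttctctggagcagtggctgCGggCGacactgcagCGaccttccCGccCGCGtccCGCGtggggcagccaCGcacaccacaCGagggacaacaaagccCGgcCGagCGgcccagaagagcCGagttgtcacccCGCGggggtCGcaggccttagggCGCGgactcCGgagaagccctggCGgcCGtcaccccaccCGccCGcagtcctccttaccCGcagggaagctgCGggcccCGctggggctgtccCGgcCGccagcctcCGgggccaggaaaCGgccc
Zfhx3, chr8:111228164-111228463: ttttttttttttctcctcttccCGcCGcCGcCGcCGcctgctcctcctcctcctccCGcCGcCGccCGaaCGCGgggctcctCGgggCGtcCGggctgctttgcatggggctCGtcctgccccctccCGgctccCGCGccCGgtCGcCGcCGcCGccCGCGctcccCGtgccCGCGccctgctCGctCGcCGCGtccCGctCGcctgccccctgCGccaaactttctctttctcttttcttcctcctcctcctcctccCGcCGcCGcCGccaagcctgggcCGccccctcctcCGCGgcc
Dll4, chr2:119163504-119163803: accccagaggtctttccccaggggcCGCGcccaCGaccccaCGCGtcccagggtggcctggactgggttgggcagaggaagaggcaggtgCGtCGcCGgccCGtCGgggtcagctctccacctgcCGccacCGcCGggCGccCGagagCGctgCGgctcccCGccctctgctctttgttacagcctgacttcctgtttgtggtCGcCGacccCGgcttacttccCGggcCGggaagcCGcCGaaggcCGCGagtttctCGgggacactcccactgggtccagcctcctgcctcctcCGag
Ccne1, chr7:38846367-38846666: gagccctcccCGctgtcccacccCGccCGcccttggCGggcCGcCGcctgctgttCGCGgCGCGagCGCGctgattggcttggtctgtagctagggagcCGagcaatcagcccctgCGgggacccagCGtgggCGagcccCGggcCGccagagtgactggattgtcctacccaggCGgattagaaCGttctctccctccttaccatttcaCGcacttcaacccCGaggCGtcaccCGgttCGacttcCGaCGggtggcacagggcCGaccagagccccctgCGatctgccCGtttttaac
Nrarp, chr2:25041343-25041642: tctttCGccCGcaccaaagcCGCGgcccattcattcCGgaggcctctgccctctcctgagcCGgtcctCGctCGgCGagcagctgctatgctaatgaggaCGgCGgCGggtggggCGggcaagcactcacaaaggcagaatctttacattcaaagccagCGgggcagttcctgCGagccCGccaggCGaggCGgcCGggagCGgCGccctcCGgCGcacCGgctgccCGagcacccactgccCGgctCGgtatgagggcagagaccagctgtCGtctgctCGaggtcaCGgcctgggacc
Wnt7b, chr15:85465273-85465572: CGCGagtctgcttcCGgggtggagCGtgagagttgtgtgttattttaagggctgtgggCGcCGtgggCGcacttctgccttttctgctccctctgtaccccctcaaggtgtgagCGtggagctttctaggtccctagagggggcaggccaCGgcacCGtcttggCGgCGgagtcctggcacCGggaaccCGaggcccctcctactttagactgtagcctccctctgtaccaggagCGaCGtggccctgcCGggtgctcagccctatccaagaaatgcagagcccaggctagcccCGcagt
These windows held 18 to 42 CpG dinucleotides at a GC content of 63.3 to 80.0%. Fold enrichment, the ChIP pileup over the local background of the control, was 9.36 at the Tet3 peak and 9.08 at the Gm9766 peak. At the retinal list genes it ran from 5.60 (Wnt7b) to 8.12 (Zfhx3). A RefSeq transcription start lay 457 bp from the midpoint of the Gm9766 peak (Cep85l), 137 bp from that of the Ccne1 peak (Gm30684) and 396 bp from that of the Wnt7b peak (D130051D11Rik).

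The next windows are those of 2 peaks that held the homeodomain core TAATTA and lay nearest to a gene of the progenitor transcription factor or ganglion cell list. They were chosen after their values were seen and for a motif made of A and T only, which favours a low GC content, so they are examples and not a comparison with the windows above. Capitals mark TAATTA.
Atoh7, chr10:62552302-62552601: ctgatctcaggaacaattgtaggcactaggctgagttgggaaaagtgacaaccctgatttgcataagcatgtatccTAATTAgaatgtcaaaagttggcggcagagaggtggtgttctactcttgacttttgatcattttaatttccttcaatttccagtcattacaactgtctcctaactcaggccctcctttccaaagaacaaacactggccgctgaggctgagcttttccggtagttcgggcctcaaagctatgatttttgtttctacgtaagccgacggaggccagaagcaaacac
Sox2, chr3:34983361-34983660: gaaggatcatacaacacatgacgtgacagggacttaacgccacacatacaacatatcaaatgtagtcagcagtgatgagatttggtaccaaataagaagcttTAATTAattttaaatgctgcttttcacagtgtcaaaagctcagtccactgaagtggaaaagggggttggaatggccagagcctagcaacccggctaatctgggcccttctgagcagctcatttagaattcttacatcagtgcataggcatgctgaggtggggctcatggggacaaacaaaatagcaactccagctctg
Atoh7 encodes the proneural factor required for ganglion cell formation and Sox2 a SOX factor of neural progenitors. The Atoh7 window held 7 CpG dinucleotides and the Sox2 window 3, each at a GC content of 44.7%. Their peaks had fold enrichments of 4.67 (Atoh7) and 3.02 (Sox2). The −log10 of q, the false discovery rate of the peak caller, was 4.19 at Atoh7 but only 1.22 at Sox2. Each window held 1 copy of TAATTA.

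The tissue was checked by asking which marker genes had a peak within 1000 bp of a TSS. All 8 progenitor markers had such a peak, as did 4 of 5 ganglion cell markers (Gap43 had none) and 2 of 4 markers of photoreceptor precursors (Otx2 and Thrb). Over all protein-coding genes the share with such a peak was 50.5%, so the count for photoreceptor precursors is no more than that share. Of other tissues, 1 of 5 pigment epithelium markers (Pmel), 1 of 3 lens markers (Maf) and 1 of 4 vessel markers (Kdr) had a peak. The blood markers found in the annotation (2 of 3) and the 4 liver and muscle markers had none. The part of such other cells in the distal intergenic peaks was not tested. After removal of redundant tags, 113543038 ChIP tags and 9210563 control tags remained, so the control was 12.3 times shallower and fold enrichment is limited by its depth.

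The distal intergenic peaks were shorter and weaker than the peaks at promoters. Their median length was 790 bp (95% order statistic interval 755 to 829 bp), with a range from 313 bp to 5355 bp. The lower end equals the fragment length of 313 bp that the peak caller used. Peaks within 1 kb of a TSS had a median length of 1065 bp (1050 to 1080 bp) and distal peaks within a gene 817 bp (760 to 876 bp). Median pileup, the mean number of scaled ChIP tags over the peak, was 10.2 in the distal intergenic peaks against 16.3 (16.2 to 16.4) within 1 kb of a TSS and 9.27 (9.10 to 9.45) within genes. Median fold enrichment was 3.86 (3.81 to 3.90), against 4.71 (4.68 to 4.73) and 3.70 (3.67 to 3.73), respectively. The distal intergenic peaks thus had higher medians of pileup and fold enrichment than the distal peaks within genes and a similar median length. This difference was not tested, and peaks of 1 pooled list are not replicates. The share with a CpG-rich centre, defined below, was 25.1% against 13.2%, and its part in the difference was not tested.

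**Figure D1:**
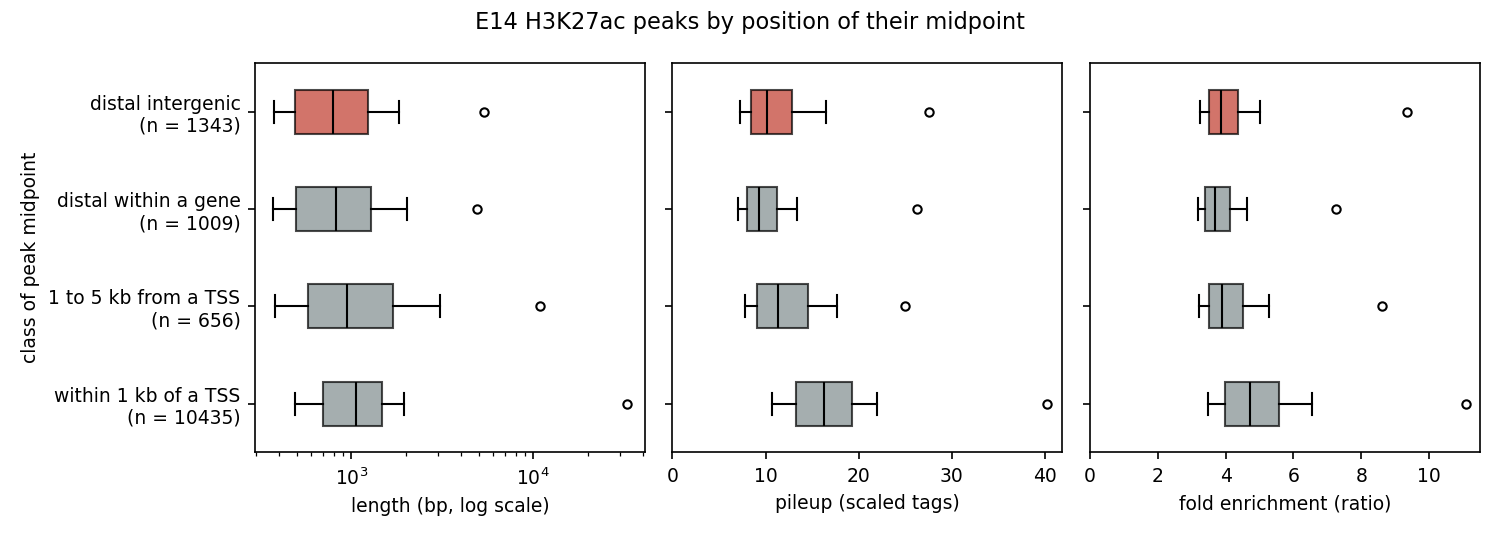
Length (bp, log axis), pileup (scaled tags) and fold enrichment (ratio) of E14 H3K27ac peaks in each class of midpoint position. Boxes give the quartiles with the median, whiskers the 10th and 90th percentiles and points the maximum. The distal intergenic peaks (red) had a median pileup of 10.2, well under the 16.3 of peaks within 1 kb of a TSS.

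Limits of 4 for fold enrichment and 0.001 for q, the stricter ones named in the study's methods, were passed by 462 distal intergenic peaks, or 34.4% (31.9 to 37.0%). Over all peaks the share was 64.1%, and it was 73.5% within 1 kb of a TSS, 39.6% at 1 to 5 kb and 22.7% in distal peaks within genes. Distal intergenic peaks therefore passed these limits less often than peaks as a whole. A q of at most 0.01, the cutoff the methods give for calling ChIP-Seq peaks, was reached by 955 of the 1343. The lower quartile of −log10 q was 1.91, against 2.94 over all peaks. Peaks short of 0.01 included those at Dll1 (−log10 q of 1.22) and Lef1 (1.27) and the weakest at Ccnd1 and Sox9 (1.24 each). Fold enrichment among the distal intergenic peaks ran from 2.35 to 9.36, and 10% of them exceeded 5.02. In all, 28 had a local background (pileup over fold enrichment) of 5 or more. These included 3 of the 5 highest in pileup, at Gm10479 (pileup 26.5, fold enrichment 4.61), at 1700045I11Rik (chr4:42055355-42056010, pileup 27.2, fold enrichment 3.40) and at Gm9969 (chr4:42695192-42695967, pileup 25.7, fold enrichment 3.97).

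Distal intergenic peaks were sparse for the sequence available to them. The territory in which a midpoint met the rule held 1253 Mb, or 52.3% of the known bases of chromosomes 1 to 19. It carried 1.07 peaks per Mb (exact Poisson interval 1.02 to 1.13), compared with 1.34 in distal sequence within genes, 2.19 at 1 to 5 kb from a TSS and 101 within 1 kb of a TSS. By chromosome the density ran from 0.591 per Mb on chromosome 3 (0.449 to 0.764) to 1.61 per Mb on chromosome 17 (1.27 to 2.01). Unmappable sequence was not removed from the territory.

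The density also fell with distance from the nearest TSS. It was 2.07 per Mb at 5 to 10 kb (243 peaks, interval 1.81 to 2.34), 1.42 at 20 to 50 kb (398 peaks, 1.28 to 1.56), 0.487 at 100 to 200 kb (108 peaks, 0.399 to 0.588) and 0.366 at 200 to 500 kb (68 peaks, 0.284 to 0.464). Beyond 500 kb, 2 peaks lay in 41.1 Mb. The share past both limits went from 41.6% at 5 to 10 kb to 17.6% at 200 to 500 kb, while median length stayed between 752 and 820 bp in the 6 bins up to 500 kb. The share did not fall in every step, being 28.9% at 50 to 100 kb and 32.4% at 100 to 200 kb.

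**Figure D2:**
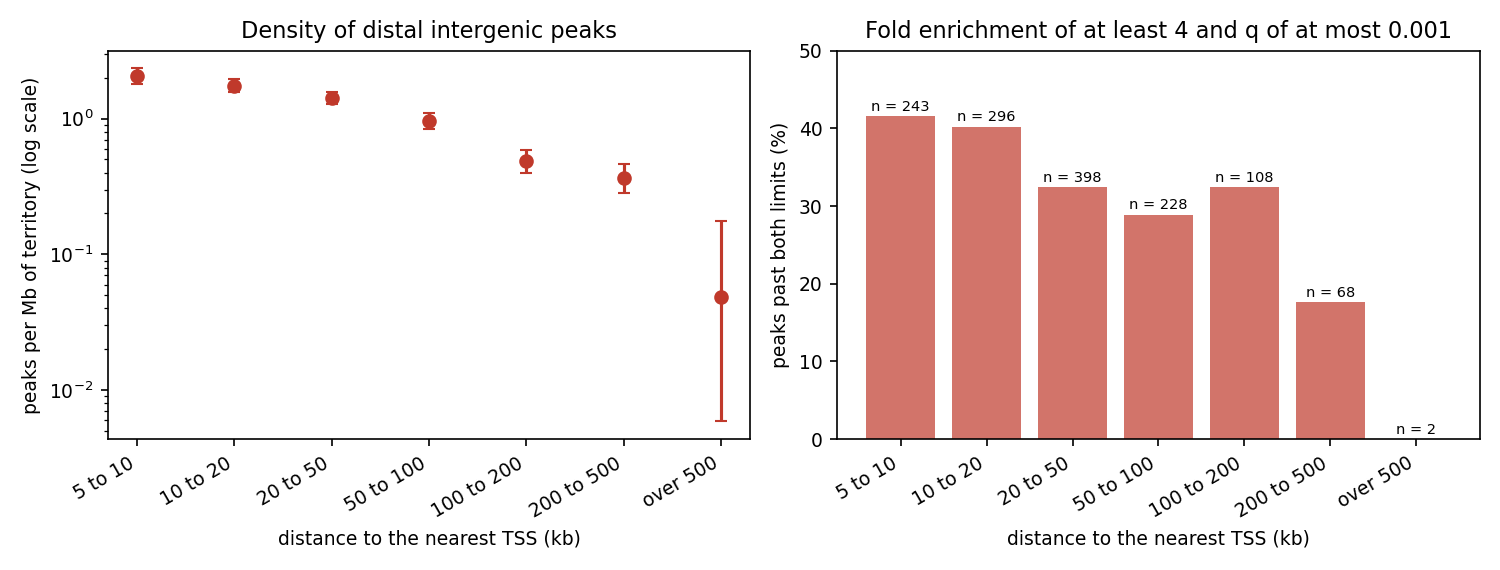
Left, distal intergenic peaks per Mb of territory in each bin of distance to the nearest TSS (log axis, bars are exact Poisson intervals). Right, the percentage of peaks in each bin past the limits of 4 for fold enrichment and 0.001 for q. Density fell from 2.07 per Mb in the nearest bin to 0.0486 beyond 500 kb, where only 2 peaks lay.

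The median distance to the nearest TSS of any gene was 26496 bp (24873 to 29028 bp, quartiles 12474 and 60601 bp). To the nearest protein-coding TSS it was 37798 bp. Of the peaks, 762 lay upstream of their nearest TSS (56.7%, 54.1 to 59.4%). The rule leaves out gene bodies, which lie downstream of a TSS, so it favours upstream positions by itself. The upstream share of the territory was not computed. The nearest TSS belonged to a protein-coding gene for 858 peaks (63.9%), to a pseudogene for 94, to a lincRNA for 80 and to an snRNA for 80. Just inside the limit of 5000 bp lay peaks at 5011 bp from Gm14488 (fold enrichment 5.03, length 828 bp), 5022 bp from Rnf150 (3.62, 333 bp) and 5049 bp from Arhgap8 (3.63, 740 bp), with pileups of 19.7, 7.0 and 7.6. Just outside it lay peaks at 4977 bp from Gm2974 (3.24, 591 bp), 4924 bp from Kdm6b (4.11, 1785 bp) and 4919 bp from Aurkb (3.55, 1940 bp), with pileups of 20.1, 18.4 and 13.4.

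The most remote peak was chr12:93976401-93976990, at 576925 bp from a pseudogene and 889098 bp from Sel1l, which encodes an adaptor of protein degradation in the endoplasmic reticulum. It was 590 bp long, with a fold enrichment of 3.47. The next, chr10:15262032-15262479, lay 557779 bp from the nearest TSS and had a fold enrichment of 4.27. The other members of the 5 most remote were at 471500 to 486009 bp, near Gm9915, Gm17459 and Gm8730, and none had a fold enrichment above that of the second. In RefSeq, however, a start of Gm29260 lay 686 bp from the first of these 3, and a start of Robo2, an axon guidance receptor, 1987 bp from the next.

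The nearest protein-coding gene of most distal intergenic peaks carried H3K27ac at its own promoter. A peak within 1000 bp of a TSS was present at the nearest protein-coding gene of 828 distal intergenic peaks (61.7%, 59.0 to 64.2%). Counted by gene, this was 632 of the 1060 nearest genes, or 59.6% (56.6 to 62.5%), compared with 50.5% of all 21418 protein-coding genes and 46.9% of the 16200 genes that had any distal intergenic territory. With the nearest gene of any biotype, the share of peaks was 43.6% (40.9 to 46.2%), so the majority holds for protein-coding genes only. The signal hardly differed between peaks with and without a promoter peak at the nearest protein-coding gene. Median fold enrichment was 3.86 with and 3.84 without a promoter peak at the nearest gene, and median pileup was 10.2 in both groups.

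Of all protein-coding genes, 4.95% were the nearest gene of a distal intergenic peak. A single such peak was found at 874 genes, 2 at 124 genes, 3 at 39 genes and 4 or more at 23 genes. Zfp36l1, an RNA-binding protein that promotes mRNA decay, led with 8 peaks, all downstream of it over chr12:80908282-81164186. They lay 50481 to 304766 bp from its TSS, with fold enrichments of 3.27 to 4.95 and lengths of 427 to 1875 bp. The strongest lay 164 bp from a RefSeq start of 9430078K24Rik. These genes were picked for their number of peaks, so their density per Mb of nearest territory is high by selection. It was 24.1 at Zfp36l1, 30.2 at Six3, 75.6 at Ankrd33 and 110 at Klrb1c, the highest of the 23. Zfp608, a zinc finger protein, followed with 7 peaks, of which 4 were upstream, at 141730 to 555829 bp and fold enrichments of 3.02 to 5.37.

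Six3, the homeodomain factor of the eye field and of retinal progenitors, had 5 peaks. A group of 3 upstream of it, at 155148, 148862 and 140489 bp, had fold enrichments of 3.86, 3.41 and 3.88. The next peak, 125798 bp upstream (chr17:85884586-85889715), was the second longest of all distal intergenic peaks at 5130 bp, with a fold enrichment of 4.79. Its central window had a GC content of 35.3%. The fifth lay 24921 bp downstream, with a fold enrichment of 3.64. Sox9, a SOX factor of retinal progenitors and Müller glia, had 4 peaks, all downstream, at 76295 to 207630 bp. They were short (342 to 692 bp) and of low fold enrichment (2.89 to 3.91), the highest of these at 146 bp from a RefSeq start of Gm46301.

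Ankrd33, an ankyrin repeat protein of photoreceptors, had 5 peaks 22952 to 68750 bp upstream but no peak at its promoter. The longest of them, 3235 bp at 38289 bp, had a pileup of 18.2 and a fold enrichment of 4.02. Chd2 and Chd7, chromodomain helicases that remodel nucleosomes, had 4 peaks each. At Chd2 all were upstream, and the nearest (16033 bp away, 3480 bp long) reached a fold enrichment of 7.13, with a RefSeq start of Chaserr 616 bp from its midpoint. At Chd7 the peak 42990 bp upstream reached 6.90, while 3 peaks downstream at 71909 to 188068 bp had fold enrichments of 4.22 to 4.67. No peak at Sox9 or Ankrd33 exceeded 4.02, whereas every peak at Chd2 and Chd7 was at or above 3.88.

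The other genes with 5 peaks were 1700001O22Rik, 4931429L15Rik and Rpl36-ps3, with fold enrichments of 3.20 to 5.13, 3.17 to 4.30 and 3.22 to 4.70. Those with 4 peaks were Arglu1, C130026L21Rik, Gm9866, Haao, Klrb1c, Ly86, Opa1, Pabpc6, Psd2, Rpl30-ps6, Rps24, Tpcn2 and Zmiz1. Among these, Opa1 (a GTPase of mitochondrial fusion) had its peaks downstream at 41614 to 103571 bp, and Zmiz1 (a transcriptional coregulator) upstream at 61189 to 350202 bp. Rpl30-ps6, a ribosomal protein pseudogene by its name, had the strongest, with fold enrichments of 5.95, 5.78 and 5.39 and a weak peak of 3.53. Klrb1c, a receptor of natural killer cells, and Ly86 were among the 9 of these 23 genes without a promoter peak.

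**Figure D3:**
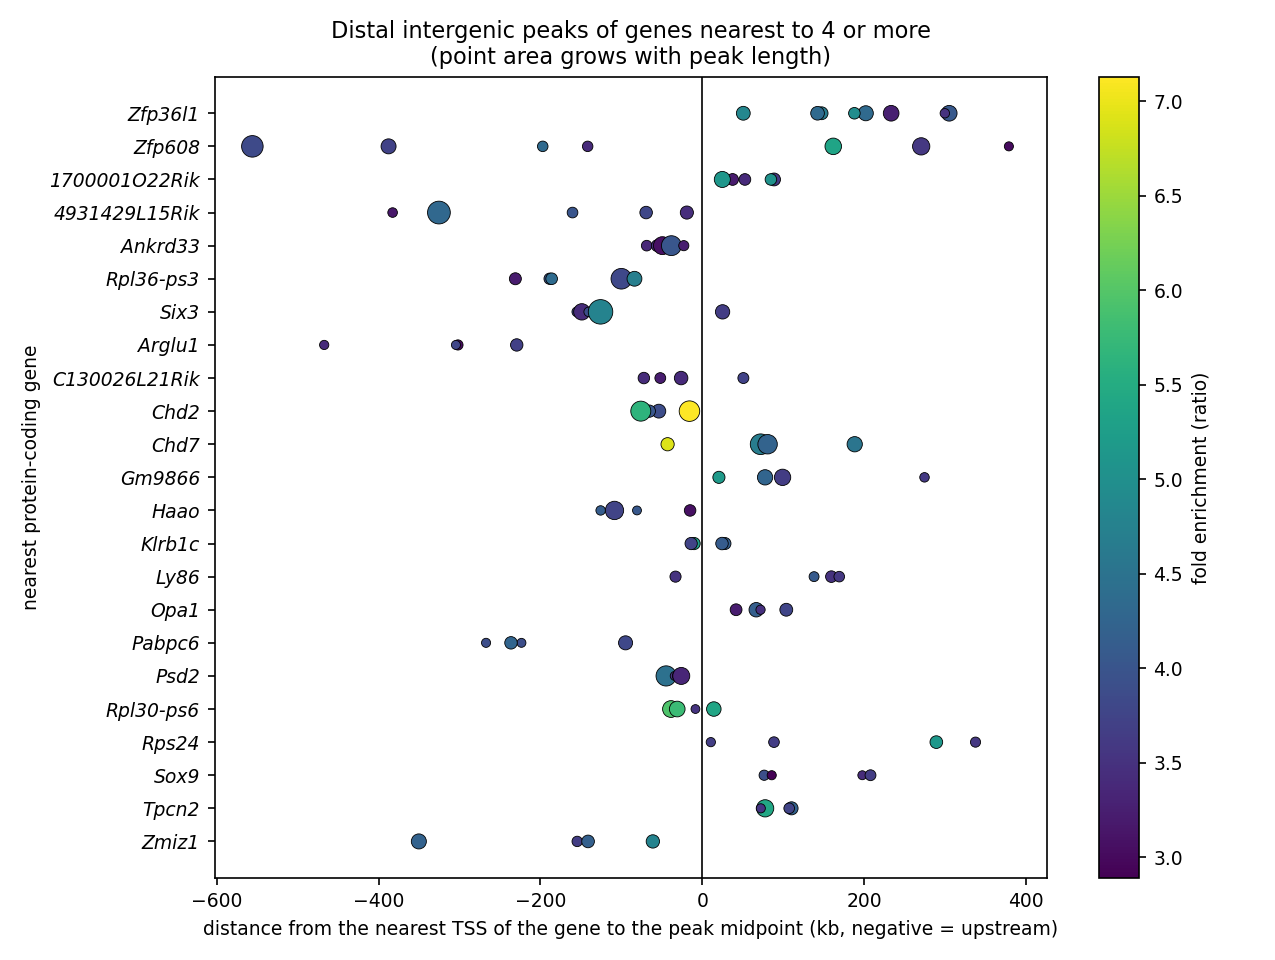
Distal intergenic peaks of the 23 protein-coding genes that were nearest to 4 or more. Each point is a peak, placed by its distance from the nearest TSS of the gene (kb, negative values upstream), coloured by fold enrichment and with an area that grows with length. Zfp36l1 has 8 peaks on its downstream side, and the Six3 peak of 5130 bp stands 125798 bp upstream.

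The gene lists were chosen with earlier results of these data known, and peaks at the same gene are not independent. The intervals of the densities cover counting error only and are no test. Grouped by function, the lists of progenitor transcription factors, Notch, Wnt and BMP pathway genes and cell cycle genes had more distal intergenic peaks for their territory than protein-coding genes as a whole, with intervals above 1.07 per Mb. The intervals of the other lists included it, and no difference between lists was tested. Past the limits of 4 for fold enrichment and 0.001 for q, an alternative added after seeing the data for the last 3 of these lists, the density over all genes was 0.369 per Mb. The Notch list then had 3 peaks at 1.96 per Mb (0.405 to 5.73) and the Wnt and BMP list 7 at 1.70 (0.684 to 3.50). The cell cycle list had 3 at 1.18 (0.244 to 3.45), an interval that includes the density over all genes. The lists were compared by the number of peaks per Mb of territory nearest to their genes, so that genes in large gaps are not favoured. Because density fell with distance from a TSS, this measure favours genes with little territory, such as Dll4 with 2 peaks in 0.0172 Mb. The 10 retinal lists together had 88 peaks in 34.4 Mb, or 2.56 per Mb (2.05 to 3.16), against 1.07 over all genes. At least 1 peak was found at 60 of their 211 genes. Of their peaks, 29.5% were past both limits, against 34.4% of all distal intergenic peaks.

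Of the 30 progenitor transcription factors, 12 had a distal intergenic peak, against 4.95% of all protein-coding genes, with 23 peaks at 4.59 per Mb (2.91 to 6.89). Past both limits, 6 of these remained, at 1.20 per Mb (0.440 to 2.61). All 12 also had a promoter peak, as did 28 of the 30 in the list (93.3%), against 50.5% of all protein-coding genes. Zfhx3, a zinc finger and homeodomain factor, had 3, of which the nearest, 10231 bp upstream, reached 8.12 while those at 327207 and 468559 bp had fold enrichments of 3.67 and 3.48. Sox2 had 2, at 434452 and 438588 bp downstream. Genes with a single peak included Meis1 (fold enrichment 4.90), Sox11 (4.27), Neurog2 (3.99), Hes1 (3.54), Id1 (3.49) and Sox4 (3.44). Distances ran from 5204 bp at Sox4 to 468559 bp at Zfhx3.

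The Notch pathway, which keeps progenitors from differentiating, had 8 peaks at 6 of 20 genes, or 5.23 per Mb (2.26 to 10.3). Its ligand Dll4 had a peak 9379 bp downstream with a fold enrichment of 6.67 and another 12249 bp upstream at 3.52, without a promoter peak. The ligand Dll1 had 1 peak (2.91). Among the nuclear factors and targets, Nrarp had 2 (5.75 and 4.06), and Rbpj, Maml3 and Hey1 had 1 each, with fold enrichments of 3.49, 3.18 and 3.55. The receptors Notch1, Notch2 and Notch3 had none, each with a promoter peak.

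The Wnt and BMP pathways had 19 peaks at 12 of 28 genes, or 4.62 per Mb (2.78 to 7.21). Among the ligands, Wnt7b had 2 peaks (fold enrichments 5.60 and 3.44), Wnt2b 1 (4.60) and Wnt7a 1 (3.69), and none of these genes had a promoter peak. The receptor Fzd5 had 1 (3.87), and the secreted antagonists Sfrp1 and Sfrp2 had 1 (4.79) and 2 (4.36 and 4.19). Of the nuclear effectors, Tcf7l2 had 2 (4.50 and 4.62), Tcf7l1 1 (3.22) and Lef1 1 (2.58), the last among the 3 lowest fold enrichments of all distal intergenic peaks. On the BMP side, the inhibitors Smad6 and Smad7 had 3 and 2, and the target Id2 had 2. The Fgf and Hedgehog list had 4 peaks at 4 of 25 genes, or 1.14 per Mb (0.311 to 2.93), close to the density over all genes. These were the ligand Fgf9 (3.24), the coreceptor Gas1 (4.14), the feedback inhibitor Spry2 (4.20) and the effector Etv4 (3.48).

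Cell cycle genes had 11 peaks at 8 of 18 genes, or 4.33 per Mb (2.16 to 7.75). The cyclins Ccne1 and Ccnd1 had 1 (5.78) and 2 (3.30 and 3.50), and the inhibitors Cdkn1b and Cdkn1c 1 each (3.94 and 4.74). Cdk6 (3.34), E2f1 (4.17) and E2f2 (3.35) had 1 each. The proliferation marker Mki67 had 3, at 172908 to 493460 bp. Axis patterning genes had 10 peaks at 6 of 21 genes, or 1.62 per Mb (0.775 to 2.97), of which Nr2f1 had 3 and Aldh1a3 and Hmx1 2 each.

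Among genes of differentiating cells, counts were small. Ganglion cell genes had 8 peaks at 8 of 24 genes, or 1.68 per Mb (0.727 to 3.32), with the highest fold enrichments at Tbr1 (4.98), Atoh7 (4.67) and Irx5 (4.42). Glial and late progenitor genes had 3 peaks, 2 at Sox8 and 1 at Slc1a3, or 2.74 per Mb (lower bound 0.565). Horizontal and amacrine cell genes had 1 peak, 163469 bp from Prox1, or 0.356 per Mb (0.00901 to 1.98), and photoreceptor genes had 1, at Mef2c, or 0.304 per Mb (0.00769 to 1.69). The list of pigment epithelium, lens, vessel and mesenchyme genes had 5 peaks or 1.11 per Mb (0.361 to 2.59), including 2 at Mitf and 1 each at Cdh5 and Col1a1. Genes of unrelated organs had none, in a territory of only 0.547 Mb that allows up to 6.75 per Mb.

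**Figure D4:**
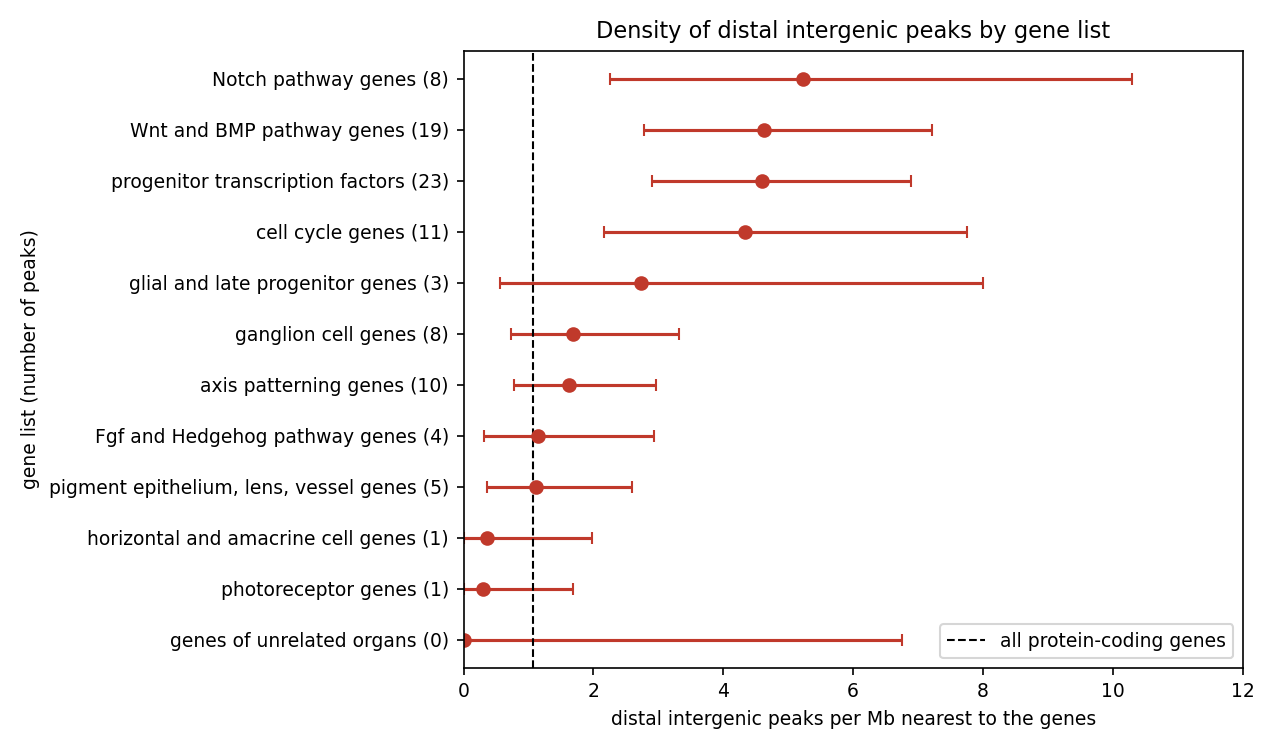
Distal intergenic peaks per Mb of territory nearest to the genes of each list, with exact Poisson intervals and the number of peaks in brackets. The dashed line is the density over all protein-coding genes. The Notch, Wnt and BMP, progenitor transcription factor and cell cycle lists lie above 4 per Mb, and the horizontal and amacrine cell and photoreceptor lists under 0.4.

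In sequence the distal intergenic peaks lay between promoters and their own surroundings. Median GC content of the central 300 bp was 54.7% (54.0 to 55.0%), compared with 67.0% in peaks within 1 kb of a TSS and 45.3% in windows 10 kb to either side of the distal intergenic peaks. It was 53.0% in distal peaks within genes and 56.3% at 1 to 5 kb from a TSS. A CpG-rich window, with a GC content of at least 50% and a ratio of observed to expected CpG of at least 0.6, was found in 337 distal intergenic peaks (25.1%). Over all peaks the share was 68.2%, in distal peaks within genes 13.2% and at 1 to 5 kb from a TSS 33.8%. The CpG-rich members were stronger, with a median fold enrichment of 4.20 and a median pileup of 14.0 against 3.79 and 9.38 in the other 1006. They were also nearer to a TSS, at a median of 19423 bp against 30614 bp, and slightly shorter, with medians of 759 bp and 802 bp.

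The strongest peaks were of this kind. All 10 peaks with the highest fold enrichment were CpG-rich, as were 60 of the top 100. Besides Tet3 (a methylcytosine dioxygenase), Gm9766 and Zfhx3, the top 10 lay nearest to Arhgap5 (8.51), Nhsl1 (8.12), Pogz (7.44), Gm7536 (7.44), Slc47a1 (7.41), Tacc1 (7.36) and Zfp709 (7.34). The Tet3 peak (chr6:83405496-83407432) was also the highest in pileup, at 27.5. Beside it and the 3 of high local background given above, the 5 highest in pileup included a peak near Cplx2 (26.6, fold enrichment 6.41). RefSeq placed a start of Cplx2 itself 703 bp from the midpoint of that peak, a start of Zfp709 45 bp from that of the Zfp709 peak and a start of Gm40094 348 bp from that of the Pogz peak.

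The longest peaks differed from these in composition. The longest, 5355 bp at chr11:28630459-28635813, lay 13055 bp from Mir216b and 120068 bp from Efemp1, an extracellular matrix protein, with a pileup of 8.1, a fold enrichment of 3.74 and a GC content of 38.0% at its centre. A RefSeq start of Mir217hg lay 2503 bp from its midpoint, within the peak. The Six3 peak came next. Peaks near 4930447C04Rik (4952 bp), Trmt61a (4756 bp) and 4931429L15Rik (4381 bp) followed, with GC contents of 51.7, 56.7 and 40.7%. None of these 5 was CpG-rich, and their fold enrichments were 3.74 to 4.79.

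Some distal intergenic peaks lay at transcription starts that are in RefSeq but not in the annotation used for the rule. RefSeq promoters (250 bases before to 50 after a start, GRCm38.p6) were located in mm9 by exact sequence, on chromosomes that held 1288 of the peaks. A RefSeq start lay within 1 kb of the midpoint for 204 of them (15.8%, 13.9 to 17.9%), 86 from protein-coding and 118 from long non-coding genes. These 204 had a median fold enrichment of 4.16, and 48.0% were CpG-rich. The 983 peaks without a RefSeq start within 5 kb had a median fold enrichment of 3.81, and 20.8% were CpG-rich. Their median GC content of 54.0% stayed above the 45.3% of the flanking windows. Among the 10 strongest, 3 had a RefSeq start within 1 kb.

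The 13 motifs searched, on both strands, were TAATTA (homeodomain core), TAATCC (OTX and CRX core), CAGCTG (E-box 1), CAGATG (E-box 2), ACAATG (SOX core), TGACAG (TALE core), TTGGCA (NFI), TGANTCA (AP-1), ATTTGCAT (octamer), GGAATG (TEAD), GGGCGG (SP or KLF box), CCAAT (NFY box) and the sequence CCGGAAG (ETS). None of these contains another, although the NFY box and the NFI motif can share bases. TAATTA was present in 63 distal intergenic peaks (4.69%, 3.68 to 5.96%), compared with 2.09% of all peaks, 1.12% within 1 kb of a TSS, 6.84% of distal peaks within genes and 7.12% of the windows 10 kb away. Its share relative to the windows 10 kb away was 0.658. Other palindromes of the same letters had ratios of 0.627 for ATTAAT, 0.429 for AATATT, 0.250 for ATATAT, 0.212 for TATATA, 0.369 for TTATAA, 0.532 for TTTAAA and 0.439 for AAATTT. The OTX and CRX core had the lowest ratio of the 13 motifs, 0.580, with 7.07% of the distal intergenic peaks against 12.2% of the windows 10 kb away. The peaks with TAATTA had a median fold enrichment of 3.83 and a median GC content of 48.3%. Of the 88 peaks at the retinal lists, 9 held TAATTA (10.2%), among them the Atoh7 and Sox2 peaks printed above.

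The largest ratios to the windows 10 kb away were those of GC-rich motifs, at 6.51 for the SP or KLF box and 4.99 for the ETS motif. GGGCGG was found in 29.6% of the distal intergenic peaks (27.3 to 32.1%) against 4.55% of the windows 10 kb away and 63.3% of peaks within 1 kb of a TSS. CCGGAAG was found in 6.33% against 1.27 and 12.8%. In distal peaks within genes and peaks at 1 to 5 kb from a TSS, GGGCGG was in 19.9 and 34.0%, and CCGGAAG in 2.28 and 6.25%. Among the E-boxes, CAGCTG was found in 23.0% (20.8 to 25.3%) against 12.9% of the windows 10 kb away, and this share exceeded the 15.6% at promoters. CAGATG was found in 20.8% against 22.8% of the windows 10 kb away and 9.44% at promoters. The SOX, TALE, NFI and TEAD motifs had ratios of 0.996 to 1.06 to the windows 10 kb away. The base composition of the windows differs between the sets, and its part in these shares was not tested.

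**Figure D5:**
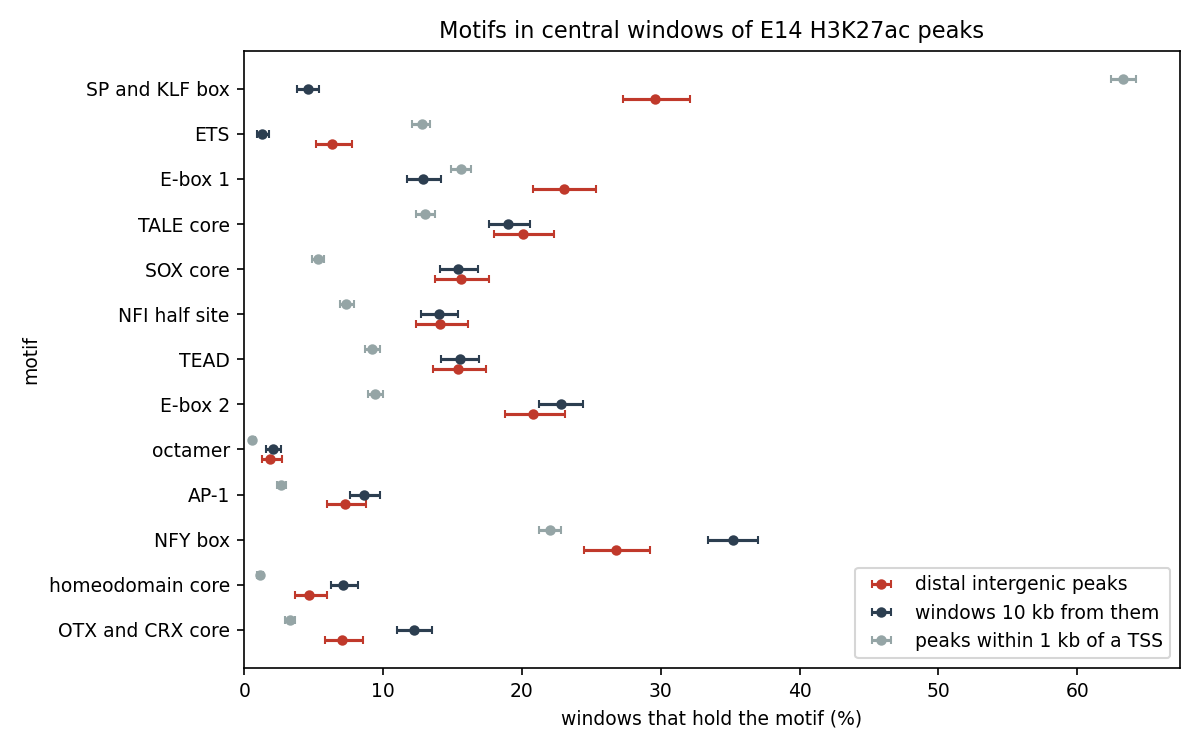
Percentage of windows of 300 bp that hold each motif, with Wilson intervals, in distal intergenic peaks (red), windows 10 kb to either side of them (dark) and peaks within 1 kb of a TSS (grey). E-box 1 is CAGCTG, E-box 2 is CAGATG and the NFY box is CCAAT. The SP and KLF box (29.6 against 4.55%), E-box 1 (23.0 against 12.9%) and the ETS motif (6.33 against 1.27%) stand above the windows 10 kb away, and the NFY box (26.8 against 35.2%), the OTX and CRX core (7.07 against 12.2%) and the homeodomain core (4.69 against 7.12%) below them.

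The median distance from a distal intergenic peak to the next peak of any class was 32429 bp, and 252 (18.8%) had another peak within 10 kb, measured between midpoints. For 153 of these the neighbour was a distal intergenic peak and for 79 it was a peak within 1 kb of a TSS. Those with such a neighbour had medians of 886 bp in length and 3.92 in fold enrichment, against 771 bp and 3.83 in the other 1091. Unbroken runs of distal intergenic peaks with gaps of at most 10 kb numbered 73, and 8 runs held 3 or more. The longest run, 5 peaks over 28981 bp at chr1:135078026-135107006, lay 35849 to 56249 bp from its nearest protein-coding genes, Ppp1r15b (2 peaks) and Plekha6 (3 peaks), with fold enrichments of 3.23 to 4.51. The group upstream of Six3 was a run of 3. Another, at chr7:19904904-19918703 between Fosb (an AP-1 subunit) and Ercc1 (a DNA repair endonuclease subunit), had fold enrichments of 4.27 to 4.95.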

How the data were processed

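The E14 H3K27ac ChIP-Seq was measured in 2 replicate libraries against 1 isotype control. The authors used Bowtie2 on mm9, retained reads that mapped uniquely, and pooled the replicates to call broad peaks. Per the file header this was MACS version 2.1.0.20140616 with a broad-region cutoff of 0.1, duplicate tags removed and the deeper library scaled to the shallower. The header gave 113543038 ChIP and 9210563 control tags after filtering. Pileup is deposited as the signal (coverage in scaled tags) averaged over the region. Fold enrichment is deposited as the ratio of pileup to the local control background, and p and q as −log10 values, all averaged over the region by MACS2. Lengths in bp are deposited too.

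Peak midpoints were assigned with GENCODE vM1 (mm9), and 0 peaks ran past a chromosome end. Genes were the nearest protein-coding TSS to a midpoint, and territory was assigned in the same way. A gene had a promoter peak when any base of a peak lay within 1000 bp of a TSS. Shares have Wilson intervals, densities exact Poisson intervals and medians order statistic intervals, all at 95%. Members named were the 10 highest in fold enrichment, 5 highest in pileup, 5 longest, 5 most remote and 3 on each side of the 5000 bp limit. Genes named were the 15 nearest to the most members, ties included, and list genes with at least 2 members. List genes with 1 member were named after their values were seen. The peaks and gene lists were chosen with earlier results of these data known. RefSeq promoters were matched by sequence without converting coordinates. Functions were tested on simulated data. Alternatives changed the TSS distance, annotation, peak limits, windows and gene assignment. The other samples were not analysed here, and some list genes are counted but not reported by name. Python 3.11.15, numpy 2.4.6, pandas 2.3.3 and scipy 1.17.1 were used.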

Additional observations from a re-analysis of the deposited data

How the results depend on the processing

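No paired analysis was possible because the list pools both replicates, and for the same reason no replicate could be left out. Of 70 alternatives computed, 43 stayed within the interval of the reported value (for counts of peaks, within 1.5 times) and 27 did not. At the limits of 4 for fold enrichment and 0.001 for q, 462 peaks remained, at 0.369 per Mb, with medians of 988 bp, pileup 12.9, fold enrichment 4.63, 57.7% GC and 21832 bp to the nearest TSS. TAATTA was then in 3.68%, and density at progenitor transcription factors was 1.20 per Mb. In the same setting, added after seeing the data for these lists, it was 1.96 per Mb at Notch, 1.70 at Wnt and BMP and 1.18 at cell cycle genes. With protein-coding annotation only, the share of all peaks was 12.3%, the density 1.23 per Mb, median pileup 10.6 and median distance 35914 bp. Beyond 10000 bp from a TSS the density was 0.969 per Mb, and beyond 20 kb 804 peaks remained. TAATTA was in 3.13% of central windows of 200 bp, 8.56% of 500 bp and 14.8% of whole peaks, whose median GC content was 53.4%. With the nearest gene of any biotype, 43.6% had a promoter peak. An alternative chosen after seeing the data left out peaks with a RefSeq start within 1000 bp, and gave 0.909 per Mb, median pileup 9.94, median fold enrichment 3.81 and 31.4% past both limits. Another such alternative, without peaks of local background 5 or more, moved no value beyond its interval. A further 11 values without peaks in repeats were not computed, since the genome copy used carries no repeat marking. The shallow control limits the fold enrichment of weak peaks, and regions under the calling threshold were not analysed here.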
